A study of Homo sapiens with 10 samples.

Results

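Distal H3K27ac regions found in every one of 8 peak lists from 2 breast cancer cell lines were examined. Their members were chosen by 3 conditions. Overlapping peaks (by at least 1 bp) on chromosomes 1 to 22 and X were joined across the 8 lists, a merged region had to hold a peak from all 8 lists, and it had to lie more than 1 kb from every transcription start site (TSS) of the GENCODE release 44 basic annotation. Of 76044 merged regions, 7580 met these conditions, which was 9.97% of all regions, 12.9% of the 58927 distal regions and 42.8% of the 17704 regions present in all 8 lists. The other 10124 regions in all 8 lists lay within 1 kb of a TSS and are called promoter regions here. Coordinates are those of hg38, the build of the deposited files.

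The lists came from SKBR3 and MDA-MB-453, both established lines that the series describes as HER2 breast cancer cells. All cells, untreated ones included, were starved for 8 h. Each line was left untreated or given TWEAK, a TNF family cytokine that signals through the receptor Fn14. TWEAK was given after the starvation at 10 ng/ml for 48 h and was replenished after 24 h. Each of the 4 groups had 2 H3K27ac libraries, and the 2 input libraries, 1 per line, have no list of their own. The study's methods call its cell line ChIP-seq replicates biological, but no source used here says which culture or day each library came from, so p-values measure the spread between these libraries only.

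H3K27ac is an acetyl mark on histone H3 that is laid down at active promoters and enhancers. Enhancers lie away from the start sites they act on, are bound by combinations of transcription factors, and differ between cell types more than promoters do. In luminal breast epithelium the factors known for enhancer binding include GATA3, FOXA1, AP-2 (TFAP2A and TFAP2C), grainyhead-like GRHL2 and the AP-1 family. TWEAK is known to activate NF-κB and AP-1 factors. The value used for a region in a list was the width-weighted mean fold enrichment over input of its peaks. Its rank was the percentile, among all peaks of that list, of the fold enrichment of its highest peak. A region with several peaks can therefore rank higher than its mean value would, which favours wide regions. A fold enrichment is an average over cells, so fewer acetylated cells and less acetylation per cell cannot be told apart.

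The 4 members with the highest mean percentile across the lists are printed first, to show what the most strongly and evenly acetylated shared distal sites look like in sequence. Capitals mark the match nearest to the middle of the region among the AP-1, AP-2, GRHL, FOX and NF-κB motifs. Those marked here are TGAGTCA or TGACTCA for AP-1 and GCCNNNGGC for AP-2, read on both strands. Matches to other motifs searched were not considered. Sequences are plus-strand hg38, 5′ to 3′.

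chr6:105608857-105608985 near PREP: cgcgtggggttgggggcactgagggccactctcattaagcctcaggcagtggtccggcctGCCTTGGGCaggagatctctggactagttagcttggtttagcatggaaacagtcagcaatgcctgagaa
chr11:44979729-44979855 near TP53I11: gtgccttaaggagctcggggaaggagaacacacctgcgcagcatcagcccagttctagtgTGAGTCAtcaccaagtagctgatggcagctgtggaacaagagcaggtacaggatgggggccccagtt
chr21:38459556-38459682 near ERG: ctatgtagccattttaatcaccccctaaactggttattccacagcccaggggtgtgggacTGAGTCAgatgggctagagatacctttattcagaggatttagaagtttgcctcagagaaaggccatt
chr16:15576875-15577003 near BMERB1: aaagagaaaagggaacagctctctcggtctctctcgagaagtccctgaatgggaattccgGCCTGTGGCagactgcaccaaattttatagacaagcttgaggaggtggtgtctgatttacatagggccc

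The region near PREP spanned 10371 bp on chromosome 6 outside protein-coding genes, 150 kb from the start of PREP, a peptidase gene. Its fold enrichment was 28.2 and 35.7 in untreated SKBR3, 41.8 and 40.4 in TWEAK-treated SKBR3, 50.5 and 42.3 in untreated MDA-MB-453, and 43.5 and 38.2 in TWEAK-treated MDA-MB-453. Its mean percentile was 99.9, the highest of any member. The region near TP53I11, 8523 bp on chromosome 11 and 24.3 kb from that gene, ran from 29.1 to 35.2 in the SKBR3 libraries and from 39.3 to 45.9 in the MDA-MB-453 libraries. In percentile terms the regions near TP53I11, near PREP and in an intron of ERG were also the 3 most even members, with percentile ranges over the 8 lists of 0.055, 0.068 and 0.17 points. ERG encodes an ETS family factor. The other members among the 10 highest lay in introns of BMERB1, TTC9, ERGIC1 and FTO and outside genes near PROM1, IER5 and SERHL2. These ranks are part of how the regions were picked and carry no test.

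Of the regions in 1 list 92.2% were distal, of those in 7 lists 76.1% and of those in all 8 lists 42.8%. Among distal regions, 16677 were found in 1 list, 1515 in 7 and 7580 in 8. Just outside the limit of 8 lists, the 1515 distal regions in 7 lists had a median width of 1954 bp and a median mean percentile of 37.1, against 3294 bp and 60.1 in the members. The list that lacked a peak was most often that of untreated SKBR3 replicate 1 (445 regions, 29.4%). At the 1 kb limit, the nearest members lay 1006, 1007 and 1008 bp from a TSS, with mean percentiles of 46.6, 59.7 and 31.4. The nearest regions on the other side lay 999, 996 and 994 bp away, with mean percentiles of 62.6, 58.9 and 65.3.

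**Figure D1:**
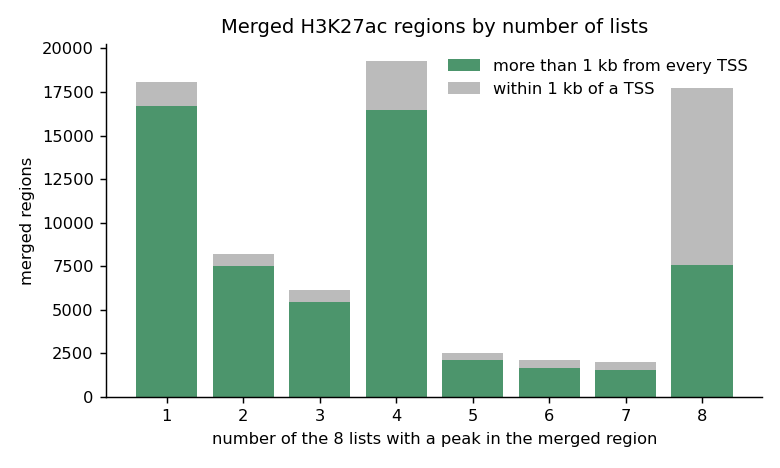
Merged regions (vertical axis) by the number of the 8 lists with a peak (horizontal axis), with distal regions in green and regions within 1 kb of a TSS in grey. The 8-list bar holds 7580 distal regions, and the distal share is 76.1% at 7 lists and 42.8% at 8.

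The members covered 32.9 Mb. Their widths ran from 291 to 69234 bp, with quartiles at 2200 and 5125 bp, and 464 (6.12%) were wider than 10 kb. A merged region joins peaks that need not coincide. In 7345 members (96.9%) at least 1 bp was under a peak in all 8 lists at once, and this shared stretch had a median length of 1011 bp, 31.0% of the width. The other 235 had no such stretch, among them the members named below near FBXW7 and RASD2 and in IKBKB, ARHGAP26 and TMPO. Their values may come from peaks at different places. The 3 widest members lay in ZMIZ1 (69234 bp), ARHGAP35 (54393 bp) and RAI1 (53200 bp), in introns of each. ZMIZ1 encodes a coactivator of the androgen receptor. The ZMIZ1 region had fold enrichments of 8.55 to 12.7 in SKBR3 and 16.6 to 19.0 in MDA-MB-453.

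Midpoints fell in an intron of a protein-coding gene for 4055 members, in an exon for 202 and outside protein-coding genes for 3323. The intron share, 53.5%, was close to the 54.1% of all distal regions. The median distance to a protein-coding TSS was 35.4 kb, against 37.4 kb for all distal regions. The sequence around the midpoint was unlike that of promoter regions: the median GC content in 1000 bp was 44.5% in members and 57.1% in the promoter regions, and 177 members (2.34%) were CpG-rich against 53.7% of promoter regions. The basic annotation leaves out some transcripts, and 888 members (11.7%) lay within 1 kb of a TSS of a transcript outside that set.

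Most members stood alone. When members up to 12.5 kb apart were joined, 5421 (71.5%) had no neighbour, and 80 lay in 15 clusters of 5 or more. The largest cluster held 7 members over 77.8 kb of chromosome 9, near ALDH1B1 and SHB. By nearest protein-coding TSS, 4302 genes had a member. TBL1XR1, a subunit of the NCoR and SMRT corepressor complexes, had 21. TRPS1, a GATA-type repressor expressed in luminal breast cells, had 18, and TFAP2A had 13. MYC had 12 and GRHL2 had 11. Large gene-poor neighbourhoods gather more nearest regions, so these counts are a description of position.

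Many listed genes of luminal breast identity had a member near them, but not all did. Of 20 listed luminal and epithelial transcription factor genes, 13 (65.0%) had a member within 100 kb for which they were the nearest protein-coding gene, and so did 13 of 20 epithelial adhesion and keratin genes. Over all 19962 protein-coding genes the share was 18.8%, and among the 10169 with a promoter region in all 8 lists it was 23.6%. The share was 9 of 20 (45%) for AP-1, small MAF and CNC genes, 8 of 15 for NAD synthesis genes, 8 of 20 for the TWEAK receptor and NF-κB pathway, 5 of 20 for mesenchymal transition genes, 4 of 20 for ERBB receptor and signalling genes and 3 of 20 for genes of other lineages. By this rule the luminal and epithelial factor genes GATA3, TFAP2C, GRHL1, XBP1, KLF5, CREB3L4 and OVOL1 had no member. FOXA1 had 1, at a mean percentile of 54.8. Among adhesion and keratin genes, CDH1, KRT18, CLDN7, ESRP1, ESRP2, MUC1 and PKP3 had none. The gene lists were chosen with earlier results of these data known, so the shares are given without a test. The labelled cell type was checked at start sites: ERBB2, EPCAM, KRT8, KRT18, KRT19, GATA3, TFAP2C, GRHL2 and SPDEF had a peak in all 8 lists, CDH1 in the 4 MDA-MB-453 lists only, and the basal keratins KRT5 and KRT14, the leukocyte markers PTPRC and CD3E and the hepatocyte marker ALB in none. The basal factor TP63 had a peak in 5 lists, and the mesenchymal markers VIM and ZEB1 in 7 each. The endothelial marker CDH5 and the fibroblast marker COL1A1 had a peak in all 8 lists, whereas PECAM1 and COL1A2 had none.

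The 33 members near luminal factor genes had a median mean percentile of 58.6, against 60.1 over all members and 71.3 over all regions in 8 lists, and the 17 near adhesion and keratin genes had 71.2. The regions described next were picked as the highest of their lists. A region 52.2 kb from GRHL2 had fold enrichments of 21.8, 28.0, 32.8 and 26.97 in the SKBR3 libraries and of 26.9, 25.9, 25.2 and 21.9 in the MDA-MB-453 libraries, untreated before TWEAK-treated, for a mean percentile of 98.9. All 8 libraries were high and the ranges of the lines overlapped in the values as deposited; after normalisation the region was higher in SKBR3 by 0.50 on the log2 scale (limma adjusted p = 1.31e-04). A region 42.6 kb from ELF3, an epithelial ETS factor, had a mean percentile of 97.9, and one 54.9 kb from ZNF217, a zinc-finger factor amplified in some breast cancers, 97.3. Near adhesion genes the highest were 58.2 kb from CD24, a surface glycoprotein gene (98.1), and 3.28 kb from CTNND1, which encodes p120 catenin (95.1). A region in ERCC1 and 7.5 kb from FOSB had a mean percentile of 98.5, and one 41.8 kb from FOSL2 had 96.7. FOSB and FOSL2 encode AP-1 subunits.

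Between promoters and members the level differed in every list. The median fold enrichment of members was 4.48 and 5.50 in untreated SKBR3, 5.06 and 5.61 with TWEAK, 5.88 and 5.90 in untreated MDA-MB-453, and 5.72 and 5.68 with TWEAK. Promoter regions had medians of 6.51 to 8.08 in SKBR3 and 9.42 to 9.86 in MDA-MB-453. The promoter median was 1.45, 1.47 and 1.46 times the member median in the first 3 SKBR3 lists and 1.64 to 1.69 times in the MDA-MB-453 lists. In TWEAK-treated SKBR3 replicate 2 it was 1.22 times, so this library stood apart. The members' median percentile there was 70.9, against 64.6 to 65.4 in the other SKBR3 lists and 57.8 to 59.6 in MDA-MB-453. The lists held 36148 to 51687 peaks and no read counts, so the depth behind each value is unknown.

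**Figure D2:**
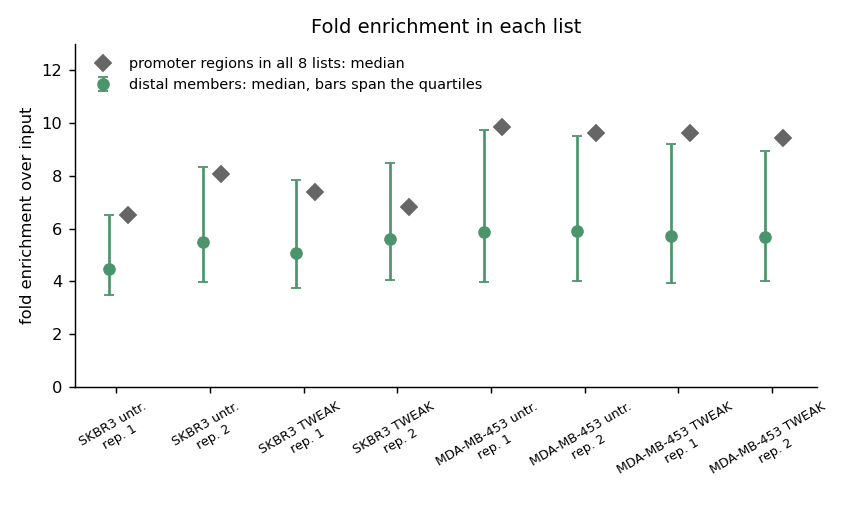
Fold enrichment over input (vertical axis) in each of the 8 lists (horizontal axis), with the median of the members as circles, their quartiles as bars, and the median of the promoter regions as diamonds. The promoter median stays above the member median in every list, and the gap is smallest in SKBR3 TWEAK replicate 2 (6.83 against 5.61).

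Rank within a list was held in common by only some members. In all 8 lists, 2801 members (37.0%) were above the 50th percentile, 227 above the 90th and 503 below the 50th. The percentile of a member ranged over a median of 34.3 points across the 8 lists, of 15.8 points within SKBR3 and of 8.14 points within MDA-MB-453. Across members, log2 fold enrichment had a Pearson correlation of 0.82 to 0.94 between SKBR3 lists, 0.970 to 0.979 between MDA-MB-453 lists and 0.35 to 0.40 between lists of different lines. Across promoter regions the correlation between lines was 0.54 to 0.60. Regions are not independent replicates, and lists of 1 line share the cell line, so these values are descriptions.

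The line comparison asked how far acetylation at shared sites still differed between SKBR3 and MDA-MB-453. In limma's moderated test on quantile-normalised log2 fold enrichment over all 17704 regions in 8 lists, 2818 members (37.2%) were higher in SKBR3 and 2429 (32%) were higher in MDA-MB-453 at a Benjamini-Hochberg adjusted p under 0.05. Over all regions tested the shares were 32.3% and 34.4%, so a larger share of members than of all regions was higher in SKBR3. The split of the calls depended on the scaling: with median centring 3312 members were called towards SKBR3 and 2161 towards MDA-MB-453 (6293 and 5784 of all regions), and with no scaling 1987 and 3240 (3267 and 8694 of all regions). A difference of more than 2-fold was seen in 952 members towards SKBR3 and in 719 towards MDA-MB-453, in all 22% of members against 12.3% of promoter regions. At the other end, 2544 members (33.6%) differed by less than 1.25-fold.

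**Figure D3:**
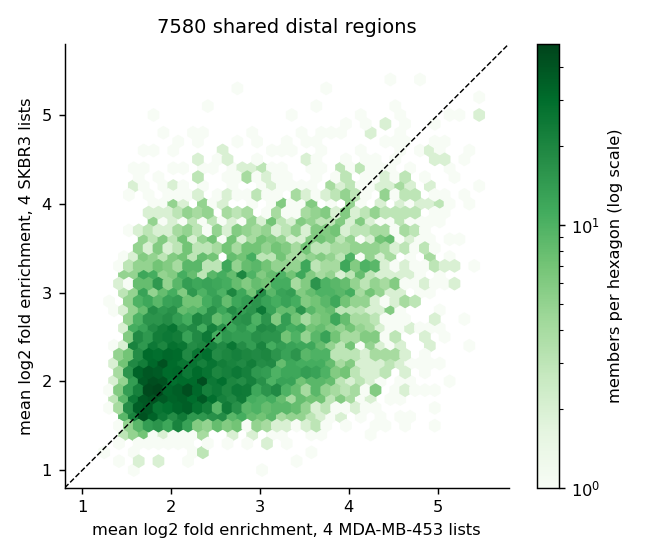
Mean log2 fold enrichment as deposited over the 4 MDA-MB-453 lists (horizontal axis) and the 4 SKBR3 lists (vertical axis) for the 7580 members, with darker hexagons holding more members on a log scale and the dashed line marking equal values. Members spread widely on both sides of the line, with 22% of them differing more than 2-fold after quantile normalisation.

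The widest line differences were found at members weak in one line and near the top of the other. A region in an intron of EFNA5, which encodes an ephrin ligand (chromosome 5, 107568949 to 107573294), had fold enrichments of 28.9, 33.6, 35.0 and 28.9 in SKBR3 and of 3.57, 3.53, 3.19 and 3.30 in MDA-MB-453. The lines did not overlap, and the difference was 3.42 ± 0.08 (SE) on the log2 scale (limma adjusted p = 2.14e-08). The next 4 towards SKBR3 were near CES1 and in KLF13, PSG9 and RIPOR3, with log2 differences of 3.02 to 3.13. Towards MDA-MB-453, a region 71.7 kb from FBXW7, a ubiquitin ligase subunit, had 2.52 to 3.37 in SKBR3 and 27.3 to 33.5 in MDA-MB-453, a log2 difference of -3.22 ± 0.09 (SE; limma adjusted p = 2.87e-08). A region in an intron of ITPR1, an intracellular calcium channel, differed by -3.06, and regions in UBE3C, near WDFY2 and in DIP2A by -2.84 to -2.86. The same direction and call held for these 10 members under every alternative they could be tested in.

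By chromosome, the split ran from 152 members higher in SKBR3 and 69 higher in MDA-MB-453 on chromosome 17 (49.5% and 22.5% of 307 members) to 47 and 85 on X (23.7% and 42.9% of 198). Chromosome 22 (46.8% and 23.1%) and chromosome 8 (29.1% and 40.2%) also stood on opposite sides. Fold enrichment is taken over the local input, and copy number was not measured here, so its part in these splits was not tested.

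Of the members near listed genes, 11 of 17 near epithelial adhesion and keratin genes were higher in SKBR3 and 2 in MDA-MB-453, with a median log2 difference of 0.64 against 0.05 over all members and -0.02 over all regions tested. Those higher in SKBR3 lay near CD24, CLDN3, CLDN4, CTNND1, DSP, EPCAM, JUP, KRT7, KRT8 and ST14. Near AP-1, small MAF and CNC genes 8 of 13 were higher in SKBR3 and 2 in MDA-MB-453 (median 0.48). The luminal factors were divided, with 13 of 33 higher in SKBR3 and 10 in MDA-MB-453 (median -0.12). Most members nearest to TFAP2A (10 of 13) and TRPS1 (11 of 18) were higher in MDA-MB-453, whereas 6 of the 11 nearest to KLF6 and 5 of the 11 nearest to GRHL2 were higher in SKBR3, and 2 and 3 of them in MDA-MB-453. Near NF-κB pathway genes 2 of 10 were higher in SKBR3 and 4 in MDA-MB-453 (median -0.17). A member in an intron of IKBKB, the kinase that marks the NF-κB inhibitor for degradation, had fold enrichments of 2.84 to 3.56 in SKBR3 and 21.2 to 27.8 in MDA-MB-453 (log2 difference -2.69 ± 0.11 SE, limma adjusted p = 6.66e-08). No base of this member lay under a peak in all 8 lists, so the lines may have been compared at different stretches of it. The median was 0.12 over 15 members near NAD synthesis genes (6 higher in SKBR3, 4 in MDA-MB-453), -0.18 over 9 near ERBB genes (4 and 4), 0.00 over 7 near mesenchymal genes (1 and 1) and -0.38 over 5 near genes of other lineages (0 and 3).

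The share of members with a motif match was compared with that of distal regions in general. In a 1000 bp window on the midpoint, on both strands, an AP-1 match was found in 24.9% of members and 25.3% of all distal regions, a match to the NF-κB consensus in 11.3% and 12.4%, and a GATA match (AGATAA) in 45.7% and 47.6%. For AP-1 the order turned with the window, from 14.9% against 15.6% at 500 bp to 39.7% against 37.8% at 2000 bp. Matches were somewhat more frequent in members for AP-2 (29.4% against 24.9%), FOX (TGTTTAC; 22% against 20.4%) and GRHL (AACCNGTT; 11.0% against 9.52%). In distal regions in 7 lists the shares were 27.6% for AP-2, 22.4% for FOX and 10.3% for GRHL, so the excess was not particular to the members. Distal regions in all 4 lists of 1 line alone had AP-2 shares of 28.5% (SKBR3) and 20.8% (MDA-MB-453). Their FOX shares were 17.7% and 26.6%, and their GRHL shares 9.87% and 9.39%. Regions were also put into 4 classes of equal size by GC content. In each class the members' share of these 3 motifs was above that of all distal regions and of those in 1 list. In the most GC-rich class AP-2 was found in 50.5% of members, 46.2% of all distal regions and 43.0% of those in 1 list. The shares were 14.7%, 11.9% and 9.80% for FOX and 7.49%, 6.28% and 5.43% for GRHL. In promoter regions the shares were 12.6% for AP-1, 52.5% for AP-2 and 6.70% for GRHL. A match describes letters in a window and does not show binding.

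**Figure D4:**
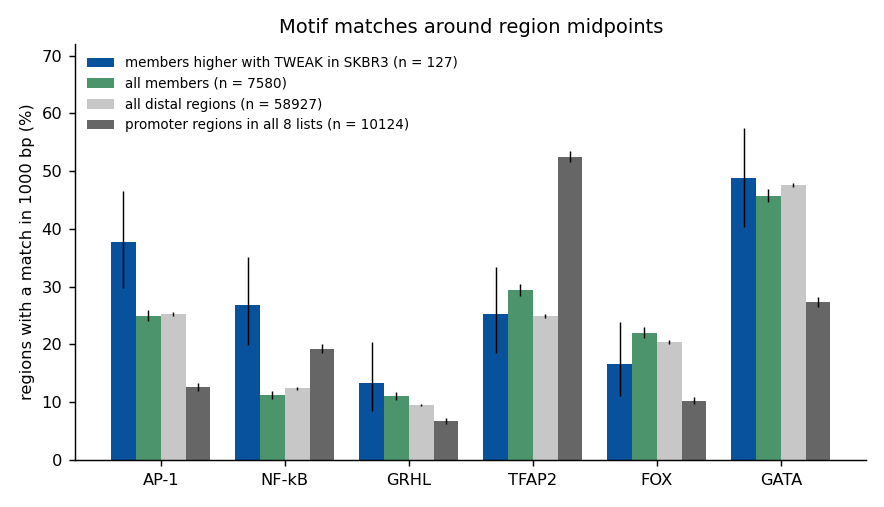
Share of regions with a motif match in the 1000 bp window (vertical axis, percent) for 6 motifs (horizontal axis) in 4 overlapping sets of regions, with 95% Wilson intervals that cover counting error only. AP-1 and NF-κB matches are found in 37.8% and 26.8% of the 127 members called higher with TWEAK in SKBR3, against 24.9% and 11.3% of all members.

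For FOX and NF-κB the lines differed in how a match went with level. Members with a FOX match had a median normalised log2 value 0.14 to 0.17 below other members in the 4 SKBR3 lists, and within 0.01 of them in the 4 MDA-MB-453 lists. Members with an NF-κB match were 0.09 to 0.21 above the others in SKBR3 and between 0.04 below and 0.00 in MDA-MB-453. AP-2 matches went with higher values in all 8 lists, by 0.05 to 0.15 in SKBR3 and 0.02 to 0.05 in MDA-MB-453. GATA matches went with lower values in all 8 lists, by 0.09 to 0.17 in SKBR3 and 0.05 to 0.06 in MDA-MB-453. GC content was not held equal here. From the least to the most GC-rich class of members, NF-κB matches rose from 4.76% to 18.2% and FOX matches fell from 30.4% to 14.7%. FOX matches were found in 24.3% of members higher in MDA-MB-453 and 19.2% of those higher in SKBR3, and AP-1 matches in 22.8% and 27.5%.

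The TWEAK comparison asked which shared distal regions changed with treatment in each line. A region had to hold a peak in every list to be a member, so sites gained from or lost to nothing are outside this comparison. In SKBR3, 127 members were higher with TWEAK and 2 lower in limma's test over all 17704 regions (adjusted p under 0.05), that is 1.68% and 0.026% of members against 0.972% and 0.0452% of all regions tested. This count was not stable. The test pools the spread of both lines, although the median replicate SD (log2) was 0.19 for SKBR3 against 0.09 for MDA-MB-453. With the SKBR3 libraries alone, 10 members passed, all higher with TWEAK and all among the 127, out of 14 regions higher (0.0791%) and 0 lower (0%) of all regions tested. In data simulated with the spread of each line, the pooled test made more false calls in SKBR3 than its threshold allows. The fit on SKBR3 alone made fewer than the pooled test, but still more than its threshold allows. Noise in the simulation was drawn independently for each library. Leaving out an SKBR3 library leaves 1 library in a group. The members' median log2 difference was then 0.11 without TWEAK replicate 1 and 0.01 without TWEAK replicate 2. It was 0.06 and 0.07 without untreated replicates 1 and 2. Promoter regions had -0.14, -0.03, -0.08 and -0.08 in that order. Which SKBR3 library was left out decided whether the number of calls rose or fell. Without any 1 of the MDA-MB-453 libraries there were 17 to 26.

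The 10 members that passed with the SKBR3 libraries alone carried the clearest change. A region of 2739 bp on chromosome 20, 5.35 kb from RNF114, a ubiquitin ligase gene, had fold enrichments of 2.21 and 2.72 in untreated SKBR3 and of 10.1 and 13.5 with TWEAK. In MDA-MB-453 it had 3.26 and 3.87 untreated and 4.45 and 3.72 with TWEAK. Its log2 difference in SKBR3 was 2.38 ± 0.20 (SE; limma adjusted p = 0.0022, and 0.0069 with SKBR3 alone). An intronic region of 5554 bp in RUNX2, a runt family transcription factor gene, had 4.504 and 5.26 untreated and 20.03 and 24.7 with TWEAK in SKBR3, and 3.87 to 5.33 in MDA-MB-453. The log2 difference was 2.21 ± 0.18 (SE; limma adjusted p = 0.0022). In both regions the TWEAK-treated SKBR3 libraries stood above the other 6.

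A region 25 kb from SP3, a GC-box factor gene, had 3.91 and 4.52 untreated and 14.95 and 18.2 with TWEAK in SKBR3 (log2 difference 2.06 ± 0.18 SE, limma adjusted p = 0.0022). One in an intron of KAZN had 3.33 and 3.72 untreated and 10.7 and 14.4 with TWEAK (1.97 ± 0.21 SE). KAZN encodes kazrin, a protein linked to epithelial cell junctions. One in an intron of SLC13A1, a sulfate transporter gene, had 3.13 and 2.77 untreated and 9.18 and 16.8 with TWEAK, so the treated replicates themselves were far apart, and its MDA-MB-453 values were 8.57 to 9.63. The other 5, with log2 differences of 1.43 to 1.75, lay in introns of COLEC10, VASH2 and ARHGAP26 and outside genes on chromosome 8 (nearest ST3GAL1) and on chromosome 6 (nearest SOX4, at 328 kb). All 10 were called in every alternative in which they were tested except the fit without untreated replicate 2, which called 6. The stricter q-value filter kept 3 of the 10. In several the stretch under a peak in all 8 lists was short. It was 137 of 2739 bp near RNF114, 142 of 2953 bp in KAZN, 333 of 3506 bp in SLC13A1 and 383 of 8096 bp near SOX4. The ARHGAP26 region had no such stretch, and the remaining ones had 726 to 1311 bp. Where it was short or absent, the values may come partly from different places.

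**Figure D5:**
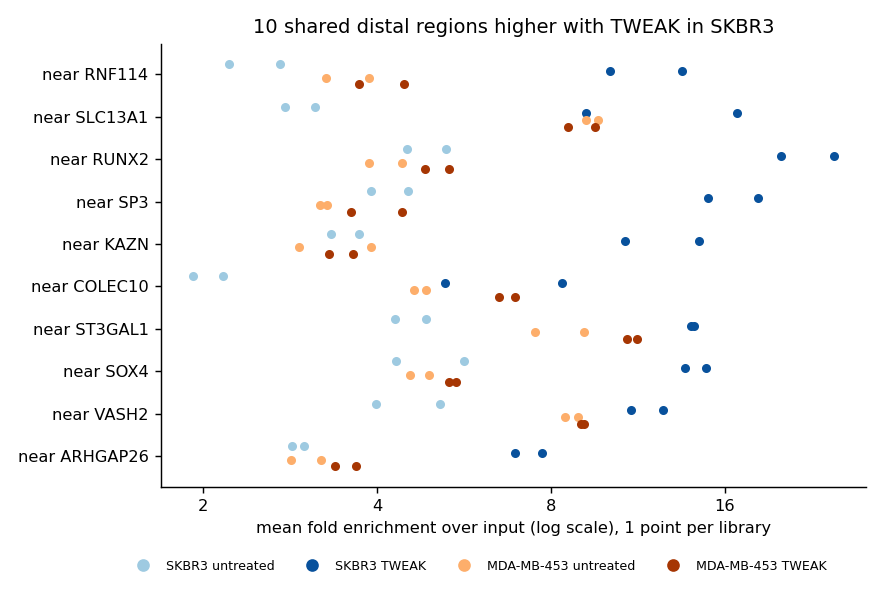
Mean fold enrichment over input (horizontal axis, log scale) in each of the 8 libraries for the 10 members called higher with TWEAK from the SKBR3 libraries alone, named by the nearest protein-coding gene (vertical axis), with 1 point per library and colours for the 4 groups. In every row the dark blue TWEAK-treated SKBR3 points lie to the right of the light blue untreated ones, as near RUNX2 (20.03 and 24.7 against 4.504 and 5.26).

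NF-κB matches were found in 34 of the 127 members (26.8%, Wilson 95% interval 19.8 to 35.1) and in 6 of the 10, against 11.3% of all members. AP-1 matches were found in 48 of the 127 (37.8%, 29.8 to 46.5) and in 6 of the 10, against 24.9%. The set was defined by the calls, so this is a description. Called members with a large TWEAK difference and an NF-κB match are printed next with that match in capitals, because this match is more frequent in the called members than in all members. These 4 were chosen after their values were seen, and each is the plus strand of hg38, 5′ to 3′.

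chr20:49930015-49930144 near RNF114: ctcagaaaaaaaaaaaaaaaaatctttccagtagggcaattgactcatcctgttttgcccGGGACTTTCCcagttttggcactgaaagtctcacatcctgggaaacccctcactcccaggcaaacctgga
chr6:45591450-45591579 near RUNX2: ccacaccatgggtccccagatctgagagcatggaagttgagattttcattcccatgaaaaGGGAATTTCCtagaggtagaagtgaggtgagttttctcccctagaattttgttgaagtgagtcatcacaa
chr1:14733110-14733239 near KAZN: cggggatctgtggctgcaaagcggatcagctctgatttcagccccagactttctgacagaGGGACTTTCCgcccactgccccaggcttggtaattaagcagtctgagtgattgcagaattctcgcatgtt
chr6:21926120-21926249 near SOX4: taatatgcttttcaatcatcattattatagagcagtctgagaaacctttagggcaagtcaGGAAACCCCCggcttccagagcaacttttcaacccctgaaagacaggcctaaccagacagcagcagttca

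The 127 members had a median percentile of 63.9 and 57.2 in the untreated SKBR3 lists and 85.0 and 91.7 in the TWEAK-treated ones, and of 57.1 to 61.4 in MDA-MB-453. Some lay at the bottom of the untreated SKBR3 lists, such as the COLEC10 region at percentiles 0.35 and 0.099 and the region near RNF114 at 0.41 and 6.86. The median log2 difference with TWEAK over these members was 1.02 for SKBR3, from the values by which they were called. For MDA-MB-453 it was 0.03, and 75 of the 127 were above 0, against 3295 of all 7580 members. None of the 127 was CpG-rich. Of the listed genes, only ESR1, which encodes the estrogen receptor alpha, had one of the 127 near it. Near NF-κB pathway genes none of 10 members passed, with a median log2 difference of 0.30 in SKBR3 against 0.06 over all members and -0.03 over all regions tested. The one of these with the highest mean percentile (91.5) lay 64.8 kb from TNFAIP3, a feedback inhibitor of NF-κB. It had 8.67 and 6.37 untreated and 11.9 and 11.5 with TWEAK in SKBR3, without overlap. Its log2 difference was 0.63 ± 0.22 (SE, limma adjusted p = 0.22). None of the members near adhesion, ERBB, AP-1, mesenchymal, other-lineage or NAD genes passed, and the medians of these lists lay between 0.03 and 0.41. The ERBB list, with the median of 0.41, includes a region 42.6 kb from ERRFI1, an inhibitor of EGFR family kinases, at 10.5 and 10.9 untreated and 17.4 and 21.4 with TWEAK (limma adjusted p = 0.061).

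The 2 members lower with TWEAK in SKBR3 lay on chromosome 2, 106 kb from TMEM18, and in an intron of CTDSPL. The first had 5.75 and 9.40 untreated and 3.97 and 4.79 with TWEAK (log2 difference -0.86 ± 0.17 SE, limma adjusted p = 0.049). The second had 3.98 and 5.93 untreated and 2.83 and 3.12 with TWEAK (-0.82 ± 0.16 SE, limma adjusted p = 0.047). Neither passed with the SKBR3 libraries alone (limma adjusted p = 0.30 and 0.24). A region near FOXP4, listed as the third lowest without overlap, had a log2 difference of -0.77 and did not pass (limma adjusted p = 0.058).

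As a body, members moved little with TWEAK in SKBR3. After quantile normalisation their median log2 difference was 0.06, against -0.08 for promoter regions, and without TWEAK-treated replicate 2 it was 0.01 against -0.03. This scaling removes any shift common to all regions, so these medians show only how members stood relative to promoter regions. With no scaling they were 0.08 and -0.04 over all 8 libraries, and with median centring 0.06 and -0.07. After normalisation, the treated and untreated SKBR3 values did not overlap in 1899 members that were higher (25.1%, against 16.7% of all regions) and in 1064 that were lower (14.04%, against 20.1%). TWEAK-treated replicate 2, which has the highest rank of distal against promoter regions, takes part in each of these values.

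In MDA-MB-453 no member passed in either direction, nor did any of the 17704 regions (0% and 0%). At an unadjusted p under 0.05, 31 of the 7580 members were higher and 73 lower in limma's test. The same count over all regions was not made. The test pools the spread of both lines, and MDA-MB-453 had the smaller median replicate SD (0.09 against 0.19, log2). The absence of calls in this line therefore does not show that no member changed. With the MDA-MB-453 libraries alone, 1 member passed as higher and 5 as lower, out of 4 (0.0226%) and 12 (0.0678%) of all regions tested. After quantile normalisation, values did not overlap in 1187 members that were higher (15.7%, against 19.3% of all regions) and in 1819 that were lower (24.0%, against 19.5%), and the median log2 difference was -0.02 against 0.02 for promoter regions. With no scaling these medians were -0.06 and -0.05, and with median centring -0.01 and -0.004. The opposite signs therefore depended on the scaling. Medians for the members near listed genes were -0.13 to 0.04 in MDA-MB-453 after quantile normalisation.

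The largest differences without overlap in MDA-MB-453 are given as a description. A region of 5542 bp on chromosome 22, 70.6 kb from NFAM1, had 3.81 and 3.59 untreated and 8.91 and 8.52 with TWEAK, a log2 difference of 1.12 ± 0.15 (SE; limma adjusted p = 0.27, and 0.0028 with the MDA-MB-453 libraries alone). It was also among the 127 in SKBR3, with 6.31 and 6.92 untreated and 13.1 and 13.8 with TWEAK (1.02 ± 0.15 SE, limma adjusted p = 0.017). NFAM1 encodes an immunoreceptor-type activating receptor. A region 15.8 kb from UNC5A, a netrin receptor gene, had 10.4 and 9.81 untreated and 13.3 and 14.04 with TWEAK in MDA-MB-453, and 6.75 and 6.71 untreated and 12.8 and 14.1 with TWEAK in SKBR3 (limma adjusted p = 1 and 0.022). In both of these regions the TWEAK-treated libraries were above the untreated ones in each line. A region 120 kb from CAPN13, a calpain protease gene, had the second largest rise without overlap in MDA-MB-453, from 3.87 and 3.08 to 4.98 and 5.26 (log2 difference 0.51 ± 0.17 SE, limma adjusted p = 1). In SKBR3 it had 3.55 and 4.19 untreated and 3.52 and 2.79 with TWEAK, a log2 difference of -0.34 (limma adjusted p = 0.37). The lowest members, in an intron of TMPO, near RASD2 and in an intron of MTMR12, had log2 differences of -0.94, -0.91 and -0.87 (limma adjusted p = 1 for each, and 0.030, 0.019 and 0.017 with the MDA-MB-453 libraries alone).

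The difference between the TWEAK effects of the lines was tested itself. No member and no region passed in limma's interaction contrast (0% of all regions in either direction). At an unadjusted p under 0.05 in that contrast, 672 of the 7580 members lay towards SKBR3 and 122 towards MDA-MB-453. The same count over all regions was not made. After quantile normalisation the median of this difference was 0.08 over members and -0.10 over promoter regions, so members as a whole lay towards SKBR3. With median centring 10 members passed, all towards SKBR3 and 6 of them among the 10 that passed with SKBR3 alone, including the regions near RNF114 and in RUNX2, out of 12 (0.0678%) of all regions tested. Without SKBR3 TWEAK replicate 1, 193 members passed towards SKBR3 and 6 towards MDA-MB-453 (1.43% and 0.22% of all regions tested). Calls in SKBR3 and none in MDA-MB-453 do not by themselves show that the lines differ.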

How the data were processed

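H3K27ac ChIP-seq was deposited as 1 peak list per library (8 lists; the 2 inputs have no list). Per the labels and the study's methods, the authors trimmed reads with Trimmomatic, aligned them to hg38 with Bowtie2, called peaks per library against input with MACS2 and removed blacklisted regions; deepTools is also named in the submitters' processing notes. Versions are not given in the sources used here. The deposited columns hold a score (10 times the −log10 q-value, cut to a whole number), a fold enrichment over input (ratio), and −log10 p-value and −log10 q-value, as the authors' caller wrote them. No replicates were pooled. Lists without reads give no depth, so no counting interval stands behind a fold enrichment, and the read-based differential test of the study's methods was not run.

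Peaks were merged in Python 3.11.15 (pandas 2.3.3), and distances, introns and exons came from GENCODE release 44. Values were log2-transformed without a pseudocount (no value was 0), quantile normalised over the 17704 regions in all 8 lists and tested with limma 3.58.1 (R 4.3.3; 4 groups, trended empirical Bayes, two-sided, Benjamini-Hochberg over all 17704 regions); all 7580 members were tested. The test was checked on simulated data, where the pooled fit gave more false calls in SKBR3, the line with the larger replicate spread, than its threshold allows. The fit on SKBR3 alone gave fewer false calls, but still more than its threshold allows. Motifs were searched with pysam 0.24.0.

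The members, gene lists and markers were chosen with earlier results of these data known. A marker gene is not reported here. Named regions were the 10 with the highest mean percentile, the largest called or non-overlapping TWEAK differences per line, the 5 largest called line differences per direction, the 3 most even, those nearest the 1 kb limit, the 3 widest, and up to 3 genes per list by highest mean percentile; the 10 members called with SKBR3 alone were added after the data were seen. Alternatives changed the scaling, the value per region, the q-value filter, the replicate block, the libraries and the rule for members.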

Additional observations from a re-analysis of the deposited data

Results flagged for a closer look

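In TWEAK-treated SKBR3 replicate 2 the members ranked higher against the rest of the list than in the other 3 SKBR3 libraries. Their median percentile was 70.9, the promoter median was 1.22 times the member median, and promoter regions held 45.6% of the summed enrichment of the list, against 52.1 to 52.8% in the others. For each of these 3 values the gap to the nearest SKBR3 library exceeded Dixon's 95% critical value for 4 libraries, out of 8 measures looked at in each line; the 4 libraries of a line include both treatments, and chance passes this limit in about 1 of 20 such groups. No MDA-MB-453 value passed it. Without this library there were 21 calls with TWEAK in SKBR3 in place of 129, and without any 1 MDA-MB-453 library 17 to 26. Its part in the TWEAK differences was not tested.

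Outside chromosomes 1 to 22 and X, 136 merged regions were found, and 25 of them held a peak in all 8 lists. None of the regions on chromosome Y did. They lay on sequences that the member rule leaves out and were not analysed further.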

How the results depend on the processing

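The number of members was 7580 and fell to 3062 when only peaks with a q-value under 1e-05 were merged, and to 2046 when 50% of a region had to be covered in every list. It was 6407 to 7345 under the other 4 rules and 7692 to 8127 without any 1 list. The 129 calls with TWEAK in SKBR3 became 131 to 145 with median centring, highest peaks, summed enrichment or no scaling, 56 with the stricter q-value (3053 members tested), 10 with SKBR3 alone and 6 to 968 without 1 library; the cause was not tested beyond the fewer members or libraries. In MDA-MB-453 the count of 0 became 1 with median centring or no scaling, 6 with MDA-MB-453 alone, and was 0 without any 1 library. The interaction count of 0 became 10 with median centring, 1 with highest peaks, 10 with no scaling and 0 to 199 without 1 library. The 5247 line calls became 2129 with the stricter q-value and 4657 to 5366 without 1 library.

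Replicate numbers are shared by all groups, but no label says that they mark a common culture or day. With the replicate block, 579 members were called in SKBR3, 514 higher and 65 lower, against 689 and 237 over all 17704 regions. There were 0 calls in MDA-MB-453. For the interaction 25 members were called, all towards SKBR3, against 33 and 1 of all regions. Between lines there were 4872 calls, 2508 towards SKBR3 and 2364 towards MDA-MB-453, against 5471 and 5580 of all regions. Same-numbered deviations had a correlation of 0.46 in SKBR3 and -0.06 in MDA-MB-453, over 2 pairs only.

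With windows of 500 and 2000 bp, the share of members with a match was 14.9% and 39.7% for AP-1 (15.6% and 37.8% of all distal regions), 6.11% and 20.2% for NF-κB (6.96% and 20.4%), and 0.36% and 1.504% for CTCF (0.45% and 1.55%; 0.87% of members at 1000 bp). Centred on the stretch covered in all 8 lists, AP-1 was found in 28.6% of members, NF-κB in 10.9% and CTCF in 1.04%; distal regions with no such stretch kept their midpoint window, and the shares over all distal regions were 25.7%, 12.3% and 0.99%. Of the tested named differences none changed sign. In SKBR3, 24 of 185 alternative values lost the call and 2 gained it; in MDA-MB-453, 6 of 85 gained it; between lines, 130 of 130 kept it. Depth is unknown, so weak peaks cannot be weighed by their reads.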
